A study of Mus musculus with 10 samples.

Results

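Pericytes were the 696 cells that the authors' annotation names pericyte (with a spelling slip in the file), of 68914 annotated cells and 108266 barcodes in 10 single-cell libraries of mouse hippocampus. They formed 1 of 16 cell classes, the tenth largest, and all of them belonged to cluster 31, which held no cell of another class. The file gives names and map positions and holds no gene values, so the name could not be checked against the pericyte genes Pdgfrb, Kcnj8 and Vtn. It is used as the authors gave it.

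Every mouse was a wild-type C57BL/6 male, 11 weeks old, injected into both hippocampi and sampled 3 days later. Of these mice, 4 received vehicle, 3 the full-length protein (FL-NfL) and 3 its coiled-coil portion (CC-NfL), each protein at 1 mg/ml. NfL, the light chain of neurofilaments, is a filament protein of axons, and the question was how brain cells respond to it when it comes from outside. No group received another protein, so a response to NfL cannot be told apart from one to any injected protein. Mice were perfused, tissue was digested with actinomycin D, which blocks transcription, and living cells were sorted, so each pericyte count is of cells that came through digestion and the sort. Fewer pericytes in the tissue and fewer pericytes released from it cannot be told apart.

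Pericytes are mural cells. They sit within the basement membrane of capillaries, wrap the endothelial tube and help to keep the blood-brain barrier closed and capillary flow regulated. Endothelial cells hold them in place by secreting PDGF-B, whose receptor is encoded by Pdgfrb. Kcnj8 encodes a pore subunit of an ATP-sensitive potassium channel, and Vtn encodes the matrix protein vitronectin. Vascular smooth muscle cells, the other kind of mural cell, surround arteries and arterioles.

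The annotation divides vessel and stromal cells into pericytes and 4 further classes. BMEC is read here as brain microvascular endothelial cells, VSMC as vascular smooth muscle cells and VLMC as vascular leptomeningeal cells, the fibroblast-like cells of the meninges and large vessels. VECA is kept as an unexplained name. Together these 5 classes held 2454 cells, 3.56% of annotated cells, of which pericytes made up 28.4%. Libraries held 3150 to 14141 annotated cells. The labels place 6 libraries in batch b1 and 4 in batch b2, with every group in both. In b1, 42.0% to 71.3% of barcodes carried no annotation, and in b2 17.3% to 20.7%. Of the pericytes, 14 (2.01%) had a barcode sequence that also occurred in another library, against 2.63% of all barcodes, and in no case was the other holder a pericyte.

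Pericytes were found in every library, at about 1 cell in each 100. Vehicle libraries 1, 2, 3 and 4 held 60, 50, 103 and 77 pericytes, which were 1.55%, 1.52%, 1.06% and 0.875% of their annotated cells. FL-NfL libraries 1, 2 and 3 held 20, 32 and 117, or 0.474%, 1.02% and 1.03%. CC-NfL libraries 1, 2 and 3 held 22, 92 and 123, or 0.509%, 1.53% and 0.870%. The lowest shares came from the libraries numbered 1 of both NfL groups, and CC-NfL library 2 stood level with the highest vehicle libraries. Exact 95% binomial intervals (Clopper-Pearson, counting error alone) ran from 0.290% to 0.731% in FL-NfL library 1 and from 1.18% to 1.99% in vehicle library 1.

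**Figure D1:**
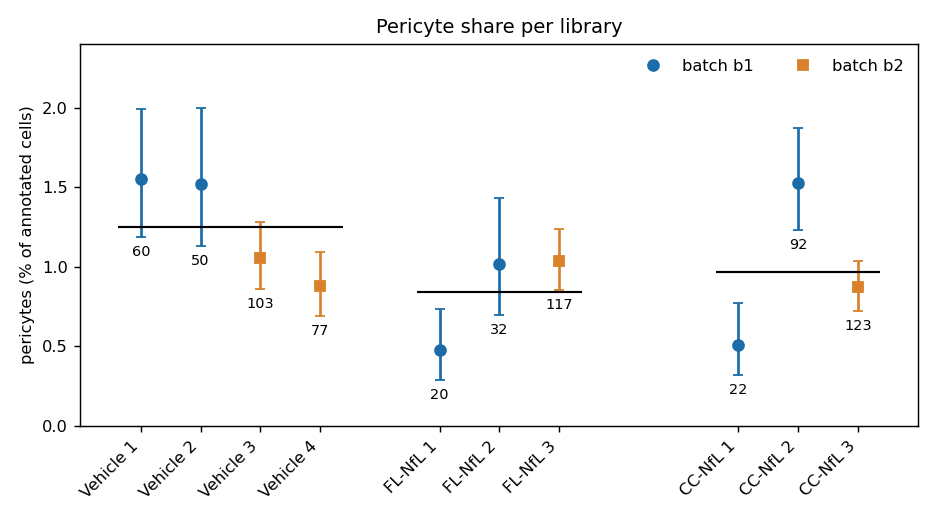
Pericytes as a percentage of annotated cells in each of the 10 libraries, with exact 95% binomial intervals; numbers are pericytes counted, horizontal lines are group means, and colour and shape give the batch. The ranges of the 3 groups overlap, and the lowest points are FL-NfL 1 (0.474%) and CC-NfL 1 (0.509%).

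The spread among libraries of a group was larger than counting error. The squared deviations from the pooled group shares were 8.29 times what binomial counting gives (7 degrees of freedom). The highest pericyte share was 3.27 times the lowest. Of the 15 classes with a cell in every library, microglia at 1.58 times and OPC (oligodendrocyte precursors) at 1.50 times varied less by this ratio.

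FL-NfL against vehicle asked whether the pericyte share differs after the whole protein. Pericytes made up 1.25% ± 0.337 of cells after vehicle (SD, n = 4) and 0.841% ± 0.318 after FL-NfL (SD, n = 3), 0.673 times the vehicle mean. All 3 FL-NfL libraries lay below the vehicle mean, and 1 of 3 lay below every vehicle library. The log2 odds ratio, fitted in limma with batch as a term, was -0.64 (SE 0.50, 95% interval -1.78 to 0.51, adjusted p = 0.948 over 16 classes). Limma called 2 of the 16 classes in this contrast (12.5%), and pericytes were not among them. The called classes were macrophages, at 1.44% ± 0.265 after vehicle and 7.36% ± 2.05 after FL-NfL, and other immune cells, at 0.328% ± 0.0744 and 1.43% ± 0.141. These rises enlarge the denominator of every other class, and with both classes removed from it the pericyte log2 odds ratio was -0.53 (adjusted p = 0.888).

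The lower mean after FL-NfL came from batch b1. In b1 the mean share was 1.53% after vehicle and 0.745% after FL-NfL, with 2 libraries each. In b2 it was 0.965% in 2 vehicle libraries and 1.03% in the single FL-NfL library. The interaction of FL-NfL with batch was 1.24 on the log2 scale (SE 1.11, limma adjusted p = 0.980), so a difference between the batches was not resolved. Without FL-NfL replicate 1 the FL-NfL mean was 1.02% (n = 2), a difference from vehicle of -0.225 percentage points in place of -0.409, and the log2 odds ratio was -0.25, and without FL-NfL replicate 3 it was -1.01. FL-NfL library 1 was also the library with the most barcodes lacking annotation, 71.3% of 14726, and whether this bears on its pericyte count was not tested.

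CC-NfL against vehicle asked the same of the coiled-coil portion. Pericytes made up 0.969% ± 0.516 of cells (SD, n = 3), 0.775 times the vehicle mean, with 2 of 3 libraries below every vehicle library and the other at the top of the vehicle range. The log2 odds ratio was -0.49 (SE 0.50, 95% interval -1.63 to 0.65, adjusted p = 0.804 in limma). No class was called in this contrast, 0 of 16 (0%) in limma and 0 in a quasi-binomial model. An unadjusted p below 0.05 was given to 3 classes by limma and to 5 by the quasi-binomial model. Within b1 the vehicle mean was 1.53% and the CC-NfL mean 1.02%. Within b2 they were 0.965% and, from 1 library, 0.870%. The estimate was -0.08 without CC-NfL replicate 1 and -0.87 without CC-NfL replicate 2.

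The direct comparison of the proteins gave a pericyte log2 odds ratio of -0.14 for FL-NfL against CC-NfL (SE 0.53, 95% interval -1.35 to 1.06, limma adjusted p = 0.918). The interval spans more than 1 log2 unit on either side, so these libraries do not show that the proteins act alike on the pericyte share. The sign turned when FL-NfL replicate 1 was left out (0.28) and when CC-NfL replicate 2 was (0.26). In this contrast 0 of 16 classes (0%) were called in limma and 0 in the quasi-binomial model, and 1 had an unadjusted p below 0.05 in either.

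Over both proteins, pericytes made up 0.905% ± 0.390 of cells in 6 libraries, 0.724 times the vehicle mean. Of these libraries 5 of 6 lay below the vehicle mean and 3 of 6 below every vehicle library. The log2 odds ratio was -0.56 (SE 0.42, 95% interval -1.53 to 0.40, limma adjusted p = 0.698), in a contrast where 2 of 16 classes (12.5%) were called. The exact two-sided permutation p of the percentages was 0.167 over all 10 libraries (0.457 adjusted over the 4 contrasts) and 0.156 when permuted within batch. Without the 3 libraries numbered 1, a choice made after seeing the data, the log2 odds ratio was -0.13. The 3 contrasts with vehicle share the same 4 control libraries.

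**Figure D2:**
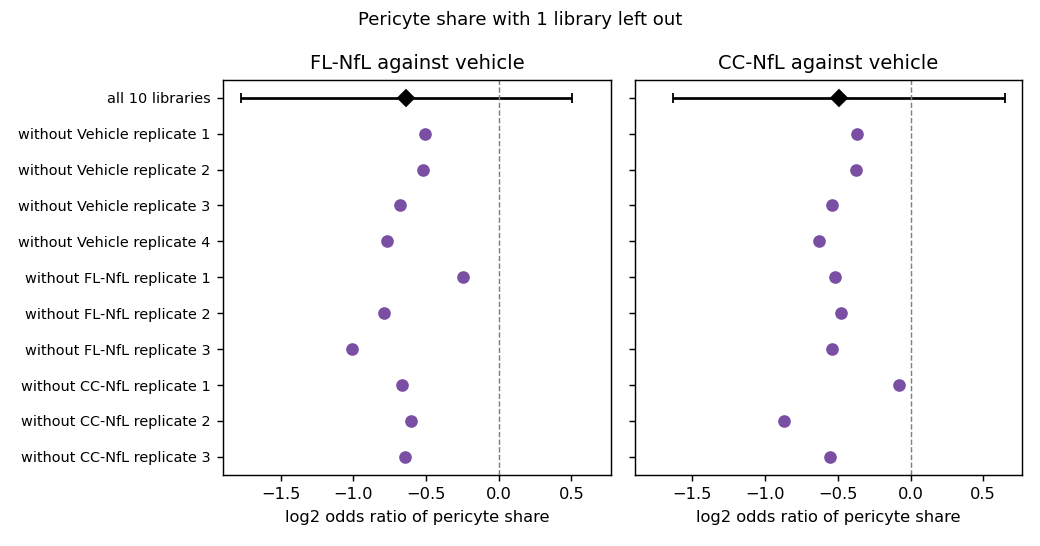
Log2 odds ratio of the pericyte share for each protein against vehicle, with all 10 libraries (diamond, 95% interval from limma) and with each library left out in turn (circles). All circles lie below 0, and the estimate nearest 0 is that for CC-NfL without CC-NfL replicate 1 (-0.08).

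Counted against BMEC rather than all cells, pericytes had a lower mean than vehicle after FL-NfL and a higher mean after CC-NfL. Neither difference passed the test. In the capillary wall, pericytes lie directly on endothelial cells, and the ratio of these classes does not depend on how many immune, neuronal or choroid cells a library holds. Vehicle libraries 1 to 4 held 0.984, 0.962, 0.620 and 0.658 pericytes per BMEC. FL-NfL libraries held 0.233, 0.744 and 0.736, and CC-NfL libraries 1.00, 1.24 and 1.29. All 3 CC-NfL libraries lay above every vehicle and every FL-NfL library, though the lowest of them, with 22 pericytes and 22 BMEC, was next to vehicle library 1, with 60 and 61. VECA are not part of this ratio. Vehicle library 2 held 50 pericytes beside 52 BMEC and 5 VECA, and CC-NfL library 3 held 123 beside 95 and 66. With VECA added to BMEC, CC-NfL library 3 would fall below vehicle library 2.

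The mean ratio was 0.806 ± 0.193 in the 4 vehicle libraries, 0.571 ± 0.293 in the 3 FL-NfL libraries and 1.18 ± 0.157 in the 3 CC-NfL libraries (SD). For CC-NfL against vehicle the ratio was 1.46 times as high, with an exact two-sided permutation p of 0.0571 and 0.267 after adjustment over the 8 comparisons of this kind. It was higher within each batch, at 1.12 against 0.973 in b1 and 1.29 (1 library) against 0.639 in b2. Both classes had lower mean shares of all cells after CC-NfL: BMEC took 1.55% ± 0.156 of cells after vehicle and 0.803% ± 0.377 after CC-NfL (log2 odds ratio -1.07, SE 0.38, limma adjusted p = 0.174), and pericytes had the lower means given above.

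FL-NfL against CC-NfL gave 0.484 times the ratio, with all 3 FL-NfL libraries below all 3 CC-NfL libraries. The exact permutation p was 0.100, the smallest that 3 against 3 libraries allow, and 0.267 after adjustment. On the log2 scale, in a linear model with batch, the difference was -1.21 (SE 0.50, 95% interval -2.43 to 0.02). FL-NfL against vehicle gave 0.708 times the ratio (exact permutation p = 0.286, adjusted 0.533), with opposite signs in the batches: 0.488 against 0.973 in b1 and 0.736 against 0.639 in b2. FL-NfL library 1 stood apart, with 20 pericytes beside 86 BMEC, and without it the difference from vehicle was -0.0659 in place of -0.235 pericytes per BMEC. Both proteins together gave 1.09 times the vehicle ratio (exact permutation p = 0.786).

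As a share of the 5 vessel and stromal classes, pericytes showed the same order of groups. They made up 30.9%, 43.1%, 20.1% and 25.3% of these cells in vehicle libraries 1 to 4. In the FL-NfL libraries the values were 17.5%, 27.1% and 26.7%, and in the CC-NfL libraries 33.3%, 41.8% and 33.1%. FL-NfL and CC-NfL libraries did not overlap, while the vehicle libraries spanned most of both ranges. The means were 29.9% ± 9.87, 23.8% ± 5.41 and 36.1% ± 4.98. Exact permutation p-values were 0.400 for FL-NfL against vehicle, 0.343 for CC-NfL against vehicle, 0.100 for FL-NfL against CC-NfL and 0.990 for both proteins against vehicle, or 0.533, 0.533, 0.267 and 0.990 after adjustment over the 8 comparisons. The vehicle, FL-NfL and CC-NfL means were 37.0%, 22.3% and 37.6% within b1, and 22.7%, 26.7% and 33.1% within b2. None of the 8 comparisons of pericytes with vessel cells passed the threshold. After adjustment 3 against 3 libraries could not have passed, and 3 against 4, with a smallest p of 0.0286, could have done so only if 5 of the 8 had reached p-values that low. Both proteins against vehicle, 6 against 4 libraries with a smallest permutation p of 0.00476, could have passed alone.

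The balance of the mural classes followed the batch. Batch b1 held 276 pericytes and 38 VSMC, and batch b2 held 420 and 250. In the 6 libraries of b1 there were 0.117 to 0.227 VSMC per pericyte, and in the 4 libraries of b2 0.398 to 0.816, with no overlap. The means were 0.150 ± 0.0410 (SD, n = 6) and 0.611 ± 0.177 (SD, n = 4), 4.07 times as high in b2. The exact two-sided permutation p was 0.00476, the smallest these libraries allow, and 0.0190 after adjustment over the 4 classes set against pericytes. This comparison was chosen after the values were seen. Without the 3 libraries numbered 1 the difference was as large (b1 minus b2, -0.476 against -0.461 VSMC per pericyte), the batches still did not overlap, and the permutation p was 0.0571.

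The pericyte share itself overlapped between the batches. It was 1.10% ± 0.512 in b1 and 0.958% ± 0.0995 in b2 (exact permutation p = 0.538), and the sign turned when all barcodes were the denominator (0.566% and 0.779%, exact permutation p = 0.252). VSMC took 0.0711% to 0.199% of cells in b1 and 0.347% to 0.861% in b2. The other ratios to pericytes did not pass between batches: per pericyte there were 1.58 BMEC in b1 and 1.32 in b2, 0.392 and 0.612 VECA, and 0.263 and 0.383 VLMC (exact permutation p = 0.943, 0.271 and 0.352). The BMEC mean of b1 was raised by FL-NfL 1, at 4.30 per pericyte. Without it the 5 other b1 libraries held 0.804 to 1.34, a mean of 1.04, which lay below b2 (exact permutation p = 0.190). The split was present in every group, with 0.118 VSMC per pericyte in b1 and 0.745 in b2 for vehicle. The corresponding values were 0.153 and 0.556 for FL-NfL, and 0.179 and 0.398 for CC-NfL. Batch b1 was also the batch with fewer annotated cells and more barcodes lacking annotation, and their part in the ratio was not tested.

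**Figure D3:**
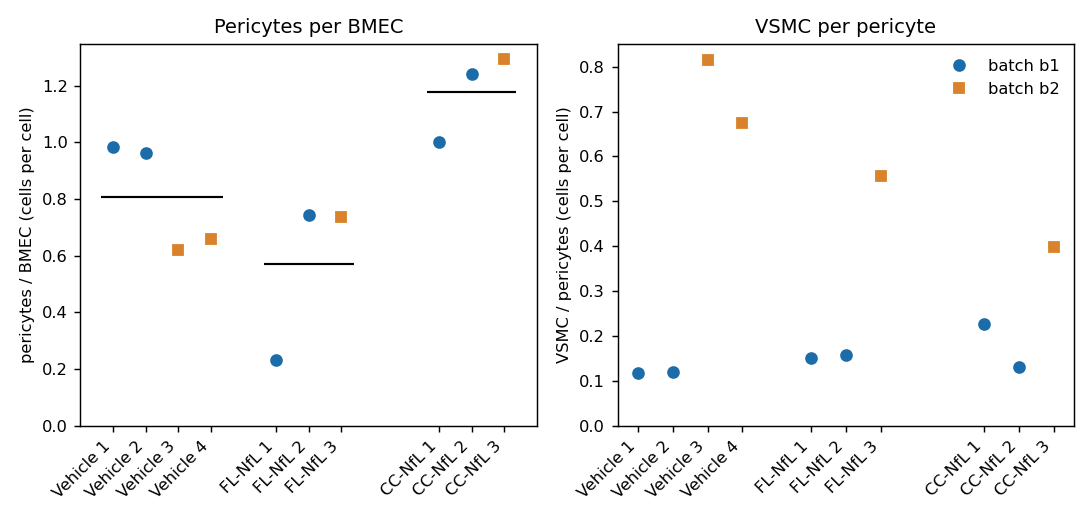
Pericytes per BMEC (left, with group means as lines) and VSMC per pericyte (right) in each library; colour and shape give the batch. On the left the CC-NfL libraries (1.00 to 1.29) lie above all others, and on the right the b2 libraries (0.398 to 0.816) lie above all b1 libraries (0.117 to 0.227).

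The pericyte share was set against the share of each other vessel class over libraries, to ask whether they vary together. Over 10 libraries the relation with BMEC had r = 0.21 (permutation p = 0.556) and rho = 0.20 (permutation p = 0.585). With VECA, r was 0.46 (permutation p = 0.176) and rho 0.61 (permutation p = 0.0668). With VLMC, r was 0.19 (permutation p = 0.601) and rho 0.37 (permutation p = 0.295). After adjustment over the 4 relations, r had p-values of 0.801, 0.706 and 0.801 and rho of 0.585, 0.267 and 0.488. Without the libraries farthest from the median pericyte share, FL-NfL 1 and vehicle 1, r became 0.63, 0.04 and -0.25. In b1 alone r was 0.16, 0.54 and 0.23. Over the 4 libraries of b2, too few for a test, r was 0.77, 0.71 and 0.89.

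With VSMC, the planned relation over 10 libraries had r = 0.02 (permutation p = 0.965, also after adjustment over the 4 relations). Its rho was 0.32 (permutation p = 0.366, adjusted 0.488). The batches form separate clusters for VSMC, so the relation was also read within a batch. This emphasis came after the batch split was seen, and b1 only was 1 of the alternatives. Within b1, libraries with more pericytes also held more VSMC, with r = 0.94 (n = 6, exact permutation p = 0.0111, 0.0444 after adjustment over the 4 classes) and rho = 0.83 (exact permutation p = 0.0583, adjusted 0.117). The VSMC counts behind it were 3 to 12 cells per library. Without FL-NfL 1 and CC-NfL 1, the b1 libraries farthest from the median, r was 0.85 over 4 libraries, too few for a test. In b2 it was 0.74 over 4 libraries, beside the similar values of the other vessel classes there, so a high r was not limited to VSMC.

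On the authors' t-SNE map, which places cells of like expression near each other, nearly all pericytes lay on an island of their own. Of the 30 nearest cells of each pericyte, 99.6% were pericytes and 0.412% were VSMC, and no other class occurred. The other classes had 99.6% to 100% of their own class among these neighbours, so this separation was not particular to pericytes. In all, 693 of 696 pericytes had pericytes alone among these neighbours. The remaining 3, of which 2 came from vehicle library 3 and 1 from FL-NfL library 3, lay at the edge of the VSMC island. All VSMC neighbours were those of these 3 cells, and the distance from the pericyte island to other classes was not measured. No cell of another class had mostly pericyte neighbours. Since class and map were made from the same expression values, these shares describe the annotation and test nothing.

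The pericyte island had an upper and a lower lobe joined by a thin bridge. Linking pericytes closer than 0.5 map units placed 493 (70.8%) in the upper lobe and 200 (28.7%) in the lower. The lobe medians on the second axis were -0.486 and -4.41. At 0.45 and 0.55 units the upper lobe was the same size and the lower held 196 and 200, at 0.4 one more group split off, and at 0.6 the lobes merged. The authors gave both lobes 1 cluster number. The lobes were drawn after the map was seen, so their shares are given with no test, and without gene values no subtype can be named.

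The lower lobe held 36.7%, 22.0%, 46.6% and 9.09% of pericytes in vehicle libraries 1 to 4. It held 0%, 34.4% and 41.0% in FL-NfL libraries 1 to 3, and 18.2%, 23.9% and 22.0% in CC-NfL libraries 1 to 3. The 0 of 20 pericytes in FL-NfL library 1 allows a share of up to 15.0%. Group means were 28.6% ± 16.5, 25.1% ± 22.0 and 21.3% ± 2.91. Libraries within the vehicle group and within the FL-NfL group differed more than the group means did. The CC-NfL libraries lay close together, and vehicle and FL-NfL libraries spread widely around them. Batch means were 22.5% ± 13.2 in b1 and 29.7% ± 17.3 in b2.

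**Figure D4:**
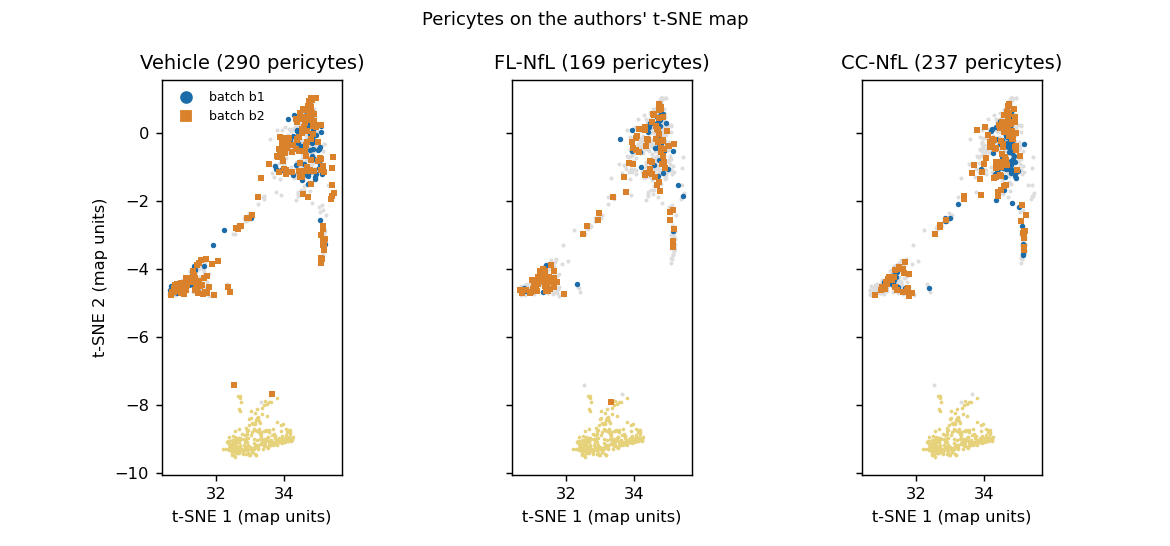
Positions of pericytes on the authors' t-SNE map by group, with pericytes of the other groups in grey and VSMC in yellow; colour and shape give the batch. In each group the pericytes fill the same upper and lower lobe, and 3 pericytes lie by the VSMC island.

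Libraries with a larger lower lobe tended to hold more cells of certain other classes. Over the 10 libraries the lower-lobe share of pericytes had its highest correlations with the shares of VLMC (r = 0.78, rho = 0.73), VECA (r = 0.74, rho = 0.85), Reelin neurons (r = 0.65, rho = 0.70) and choroid cells (r = 0.64, rho = 0.81), of 15 classes. With VSMC, r was 0.48 (rho = 0.44), and with the pericyte share itself it was 0.49 (rho = 0.70). With BMEC, the capillary endothelium, r was 0.03 (rho = 0.24). The highest correlations were picked from 15 values after they were seen, and the shares come from the same libraries. All of these values are therefore a description with no test. Vehicle library 1, with 15.4% choroid cells and 1.32% VECA, had 36.7% of its pericytes in the lower lobe. FL-NfL library 1, with 2.87% choroid cells, 0.118% VECA and no VLMC, had none. FL-NfL library 3 went against the choroid order, with 3.60% choroid cells and 41.0% of pericytes in the lower lobe. Vehicle library 4 went against the VLMC order, with 0.307% VLMC and 9.09% of pericytes in the lower lobe.

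**Figure D5:**
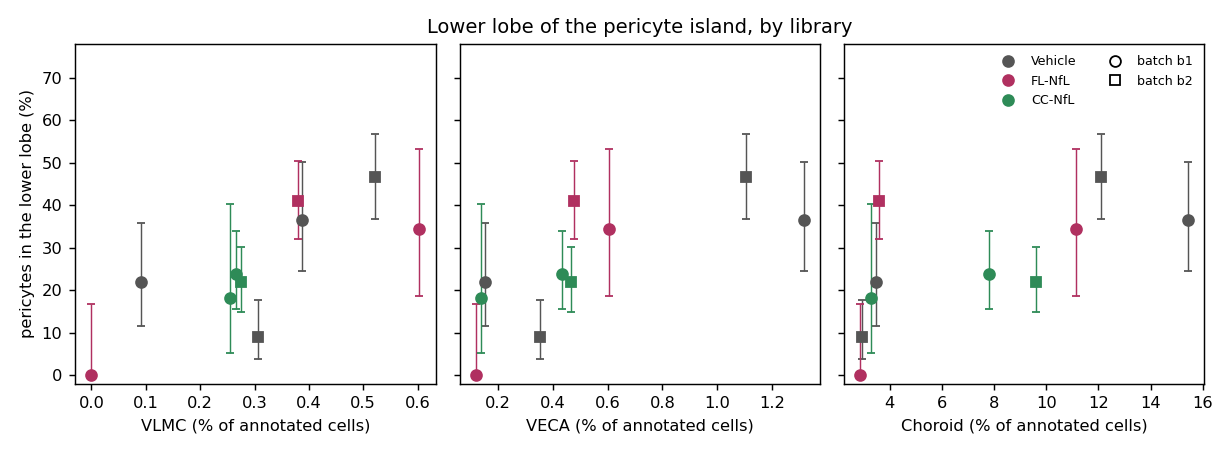
Share of pericytes in the lower lobe (vertical axis, exact 95% binomial intervals) against the share of VLMC, VECA and choroid cells among annotated cells (horizontal axes), 1 point per library. The lowest point is FL-NfL 1 at 0% and the highest vehicle 3 at 46.6%. FL-NfL 3 (41.0%) lies above the others at low choroid share, and vehicle 4 (9.09%) lies low for its VLMC share (0.307%).

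A grouping of pericytes by treatment on the map was not detectable with these libraries. For each pericyte the 30 nearest pericytes were taken, and the log2 of observed over expected neighbours was averaged for library pairs within a group, less the average for pairs across groups. The value was -0.00431, with an exact one-sided permutation p of 0.289 over the 1080 arrangements within batch. Its sign turned under several of the alternatives tried.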

How the data were processed

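Droplet 3′ single-cell libraries of 10 mice were processed by the authors with Cell Ranger 6.0.1 on the build GRCm38, per the submitters' processing notes. For their filters, treatment of doublets, clustering and naming, the sources used here state nothing. No doublets were called here, since the file holds no counts. The deposited file holds, per the file headers, names for each barcode and t-SNE positions, a score with no unit of its own. Its condition and batch matched the labels in all 68914 annotated cells.

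Cells were counted per library and class, and the library was the replicate. Shares were fitted as log2((cells + 0.5) / (other cells + 0.5)) in limma (version 3.58.1, under R 4.3.3), with terms for group and for batch, over all 10 libraries and all classes averaging 10 or more cells a library, with Benjamini-Hochberg adjustment over 16 classes and a threshold of 0.05. Single ratios were compared by exact permutation of libraries (Python 3.11.15, scipy 1.17.1), and correlations with 100000 resamples. Tests were two-sided except on the map. Scripts were tested on simulated data. The class described, the classes set beside it and the tests were chosen with earlier results of these data known. Named classes were those of vessels and stroma, those next to pericytes on the map, and immune classes that enlarge the denominator. Lobes, the lobe correlations and the ratio of VSMC to pericytes were added after the values were seen. The weight given to the relation with VSMC within b1 was also chosen after the batch split was seen. Alternatives were other scales, denominators, models and omitted libraries. Intervals and the limit for a count of 0 (3 cells) cover counting error alone.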

Additional observations from a re-analysis of the deposited data

Results flagged for a closer look

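CC-NfL library 1 had 0.227 VSMC per pericyte, above the other 5 libraries of batch b1 (0.117 to 0.156) by a gap larger than Dixon's 95% critical value allows for 6 libraries. It rests on 5 VSMC and 22 pericytes. This was the 1 outlying library among 16 groups of values examined, and chance flags about 1 in 20 such groups.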

How the results depend on the processing

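For FL-NfL, CC-NfL and both proteins against vehicle, the pericyte estimate stayed below 0 and short of the threshold in all 21 alternatives. These estimates were log2 odds ratios except on the arcsine and centred log ratio scales. For FL-NfL against vehicle the log2 odds ratio was -0.35 in the quasi-binomial model and -1.14 in b1 only. With 1 library left out these contrasts ran from -1.01 to -0.25, from -0.87 to -0.08 and from -0.77 to -0.37, and without the 3 libraries numbered 1 they shrank to -0.21, -0.05 and -0.13. FL-NfL against CC-NfL ran from -0.59 to 0.28 with 1 library left out. Comparisons of pericytes with vessel cells kept their sign in all 16 alternatives for each single protein and between the proteins, and none passed, but some came close to 0. With 1 library left out, the share of vessel cells ran from -9.33 to -1.67 percentage points for FL-NfL against vehicle and from 2.95 to 10.6 for CC-NfL, and pericytes per BMEC from -0.322 to -0.0659 and from 0.312 to 0.463. Without the 3 libraries numbered 1, pericytes per BMEC for FL-NfL against vehicle was -0.00670. Both proteins against vehicle had no stable sign. For the share of vessel cells, 0.0625 percentage points, it turned in the linear log2 model with batch (-0.0527) and b1 only (-7.06) and ran from -3.19 to 4.47 with 1 library left out. For pericytes per BMEC, 0.0692, it turned on the log2 scale (-0.0344), in the linear log2 model (-0.0288) and b1 only (-0.168), and ran from -0.0148 to 0.198 with 1 library left out.

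Deviations of same-numbered replicates had r of -0.13 to 0.54 (same batch, other number: median 0.03), so pairing was left undecided. With the number as a replicate block in place of batch, the limma estimates were -0.77, -0.63, -0.14 and -0.70 for the 4 contrasts and no pericyte call was made; the share of vessel cells for both proteins turned to -1.45 percentage points. With 3 pairs the smallest p is 0.250.

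Pericyte share by batch turned over all barcodes (-0.213 percentage points). VSMC per pericyte kept its sign, from -0.532 to -0.393 with 1 library left out, and passed in all 12 alternatives but that without the 3 libraries numbered 1 (-0.476). The pooled r with VSMC, 0.02, was -0.20 as deviations from group means, -0.0943 without the 2 farthest libraries and 0.94 in b1 only, the 1 relation that passed there, and ran from -0.20 to 0.12 with 1 library left out. With VLMC it was -0.25 without the 2 farthest and ran from -0.17 to 0.45, and with BMEC it ran from -0.13 to 0.67. Grouping on the map was 0.00763 with 10 neighbours and ran from -0.0904 to 0.0702 with 1 library left out, with permutation p from 0.133 to 0.794 over all its alternatives. The causes were not tested. Counts of 20 to 123 pericytes and 3 to 84 VSMC per library limit every value. Fits without the libraries numbered 1 were chosen after seeing the data.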
